A study of Mus musculus with 12 samples.

Results

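The 35 genes described here are the oxygen-sensing and hypoxia-inducible genes of the mouse that lie outside the glycolytic pathway itself. They were taken by symbol from the deposited gene table, where each of the 35 names matched exactly 1 of 21899 rows. Of these, 34 had enough counts to be tested beside 13638 genes in all, and the glycogen-targeting subunit Ppp1r3c did not. Expression was measured by RNA sequencing in 12 libraries, 3 from each of 4 groups of BALB/c mice, an immunocompetent strain, carrying tumours of 4T1-LUC, a luciferase-labelled line of mouse breast cancer cells. All mice were 4 to 6 weeks old at the start and received 0.2 mL of tumour cells under the skin of the chest and abdominal wall. The control group was given 200 µL of corn oil by gavage each afternoon. In the curcumin group the oil carried 100 mg/kg of curcumin, a plant polyphenol. Mice in the swimming group received oil without curcumin and swam for 30 min soon afterwards, as titles and protocol have it. The combination group received both curcumin and swimming. The treatment labels of the swimming and combination samples name only the oil or the curcumin and leave out the swimming. A tumour-free group named in the protocol was not analysed here, and the sex of the mice and the length of treatment are not given in the sources used here. The labels do not say whether the libraries of a group came from separate mice, so the spread that the p-values rest on may be technical.

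Cells answer low oxygen mainly through hypoxia-inducible factors, each made of an oxygen-labile alpha subunit (Hif1a or Epas1, also called HIF-2 alpha) and the stable partner Arnt. With oxygen present, the prolyl hydroxylases Egln1, Egln2 and Egln3 mark the alpha subunit for destruction by the ubiquitin ligase component Vhl, and Hif1an hydroxylates it to block its co-activators. In low oxygen the dimer binds DNA at a short core sequence and raises genes for acid export, mitophagy, stress control and altered fuel use, and much of the control of the alpha subunits is at the protein, which RNA sequencing does not see.

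Sequences before the start sites of 6 members whose RNA was lower in the combination than with swimming alone are shown because they carry, or lack, the core letters that the factors bind. They come from RefSeq (build GRCm38.p6), 5′ to 3′ on the strand of the gene, from within the 250 bases before a listed start site. For Ddit4 and Fam162a only the longest part of that stretch without annotated exon is given, which lies away from the start for Ddit4 and next to it for Fam162a. Capitals mark ACGTG and GCGTG on either strand, so CACGT and CACGC are the same letters read from the other strand. The palindrome CACGTG holds ACGTG on both strands. For Ero1a and Fam162a the bases after the listed start were not found in an annotated transcript of the gene. Their start and strand therefore rest on RefSeq alone.
Ero1a, chr14:45318573-45318822, minus strand: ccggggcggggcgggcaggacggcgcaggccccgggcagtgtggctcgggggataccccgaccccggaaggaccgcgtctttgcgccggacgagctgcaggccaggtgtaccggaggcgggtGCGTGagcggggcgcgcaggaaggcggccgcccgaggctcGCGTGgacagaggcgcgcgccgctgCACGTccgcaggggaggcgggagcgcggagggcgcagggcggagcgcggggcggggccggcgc
Ddit4, chr10:59951835-59952020, minus strand: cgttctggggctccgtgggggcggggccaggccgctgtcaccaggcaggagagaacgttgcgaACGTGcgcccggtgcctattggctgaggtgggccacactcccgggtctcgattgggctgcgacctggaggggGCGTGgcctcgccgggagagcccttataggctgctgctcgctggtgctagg
Fam162a, chr16:36071562-36071684, minus strand: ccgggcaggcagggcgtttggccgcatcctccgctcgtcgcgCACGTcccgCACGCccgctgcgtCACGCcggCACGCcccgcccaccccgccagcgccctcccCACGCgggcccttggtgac
Pdk1, chr2:71872974-71873223, plus strand: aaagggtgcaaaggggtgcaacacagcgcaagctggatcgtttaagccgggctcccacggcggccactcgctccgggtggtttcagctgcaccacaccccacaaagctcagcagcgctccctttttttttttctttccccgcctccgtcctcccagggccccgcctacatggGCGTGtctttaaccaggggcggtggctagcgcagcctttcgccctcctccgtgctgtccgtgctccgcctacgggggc
Gbe1, chr16:70313699-70313948, plus strand: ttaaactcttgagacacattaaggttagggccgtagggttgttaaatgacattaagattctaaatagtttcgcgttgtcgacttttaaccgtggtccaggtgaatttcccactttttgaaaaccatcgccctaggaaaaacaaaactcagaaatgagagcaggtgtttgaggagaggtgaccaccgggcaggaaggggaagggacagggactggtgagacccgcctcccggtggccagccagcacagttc
Car9, 30 bases around its single ACGTG, before the listed start but within bases also annotated as exon, chr4:43506995-43507024, plus strand: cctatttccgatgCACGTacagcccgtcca

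The table of promoters holds 30 of the 35 members. Its windows of 250 bases before each listed start, exon bases included, contained ACGTG on either strand in 17 of the 30 (56.7%), against 24.5% of 10797 tested genes and 18.5% of all 27025 genes in the table. GCGTG was found in 21 members (70%), against 48.4% of tested genes. Median GC content of the windows was 60.7% for members and 59.6% for tested genes. A gene counted when any of its windows held the letters, and members had somewhat more windows per gene. There were 42 windows for the 30 members and 13790 for the 10797 tested genes. Ero1a, Ddit4 and Fam162a held both kinds of core, the Pdk1 window shown held GCGTG only, and Gbe1 held neither. ACGTG was present in 6 of 11 members called lower in the combination than with swimming and in 11 of 19 others. Epas1, Bnip3l, Ndrg1, Kdm4b and Bhlhe40 had no entry. These letters are a description of the windows, not evidence of binding.

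Library totals ran from 15069348 to 17278826 counts, and 3 counts, the level below which absence cannot be told from counting alone, stood at 0.175 to 0.201 CPM. Expression is given as CPM, each count relative to the size of its library, after scaling by the trimmed mean of M values (TMM). Each log2 fold change is followed by a standard error. For edgeR it was worked back from the change and its test statistic, so it restates the test. A gene was called when its edgeR p-value, adjusted over all 13638 genes, was 0.05 or below. Epithelial RNA was present in every library: the summed level of 10 epithelial genes such as Epcam and Krt8 ran from 2899.5 to 3778 CPM, with Cldn7 alone at 0 counts in some library. With no tumour-free sample beside it, this sum does not test the tumour label. The libraries also held RNA of other cells. Control 2 stood apart, with 10 skeletal muscle genes at a sum of 10.2 CPM (186 and 435 in the other controls), 8 fibroblast genes at 1219.7 (3773 and 4541) and 9 neutrophil genes at 267 (68.2 and 71.4). The 3 combination libraries were the most alike of any group, with a biological coefficient of variation of 6.47% against 12.4% in curcumin, 16.4% in swimming and 26.7% in control, although each pair differed by more than counting noise (chi-square per degree of freedom from 3.611 to 7.485). Neither the labels nor the file headers name a batch. In bulk tissue, fewer cells of a type and less RNA per cell cannot be told apart.

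**Figure D1:**
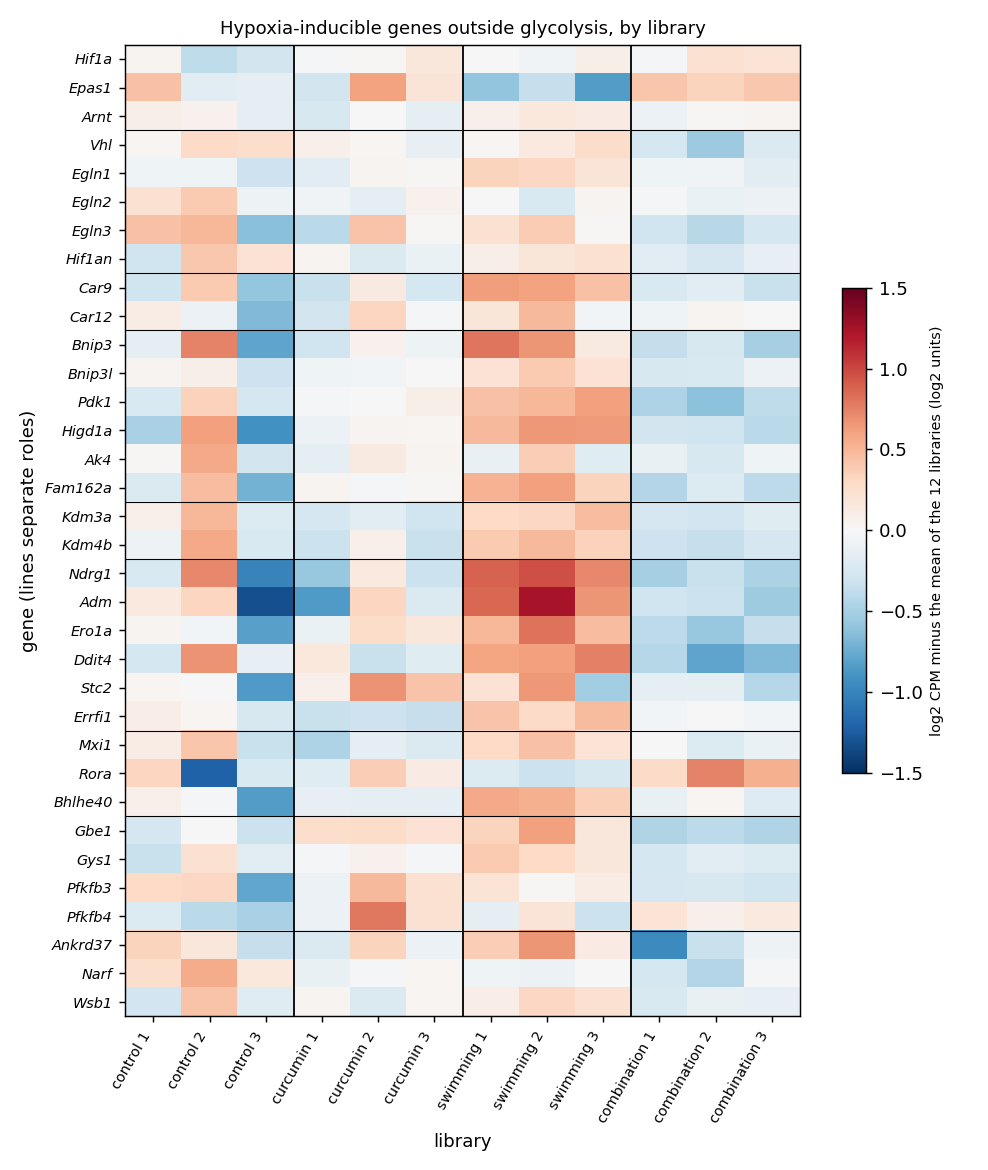
Level of the 34 tested members in each of the 12 libraries, as log2 CPM minus the gene's mean over all libraries; rows are ordered by role and vertical lines separate the 4 groups. The 3 swimming columns are mostly above the mean, the 3 combination columns mostly below it, and control 2 differs from the other controls.

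Swimming tumours held the highest group mean for 24 of the 35 members and combination tumours the lowest for 24, with both true of 18. Summed over members, the level was 4587 to 4980.2 CPM with swimming, 3128 to 3644 under curcumin and 3102 to 3182 in the combination. The controls spanned 2665 to 4329 CPM, so in this sum they overlapped the 2 curcumin-treated groups but stayed below swimming. The sum weights abundant members most. As a mean of log2 levels centred per gene, controls 1 to 3 stood at 0.03, 0.16 and -0.38. The swimming libraries stood at 0.25, 0.36 and 0.17, so control 2 was close to swimming 3. Controls varied most: the median coefficient of variation over tested members was 25.7% in control and 9.51%, 7.46% and 6.00% in curcumin, swimming and combination, against 15.8%, 9.34%, 11.8% and 7.46% over all tested genes. Control 2 was the highest control for 22 of 34 tested members and control 3 the lowest for 26. Per gene length the most abundant members were Errfi1 (mean 126 FPKM), Ddit4 (73.0), Ndrg1 (72.1), Bhlhe40 (69.1) and Egln3 (61.0), and the least abundant were Ppp1r3c (0.143), Rora (0.739), Stc2 (1.17) and Ankrd37 (1.74).

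Adding curcumin to swimming was read by setting the combination against swimming alone. It was the comparison with the most members called: 14 fell and 1 rose, 15 of 34 against 6.66% of all genes tested. Those called lower were Vhl, Egln1, Car9, Bnip3l, Pdk1, Fam162a, Kdm3a, Kdm4b, Ndrg1, Ero1a, Ddit4, Errfi1, Gbe1 and Gys1, and the one called higher was Epas1. For comparison, 3.15% of all genes were called lower and 3.5% higher. The median log2 change was -0.48 over the 34 members, 30 of them negative, where 49.4% of all genes had a positive change. At unadjusted p under 0.05 there were 24 members (27.4% of all genes). In 25 members every combination library lay below every swimming library, which held for 20.2% of all genes, and in 2 members, Epas1 and Rora, every combination library lay above (20.4% of all genes). The calls depended on single libraries while the sizes hardly did, with the median between -0.50 and -0.44. Over all genes 908 were called as reported, and this count moved too. Without swimming 1, swimming 2 and swimming 3 the members called were 3, 8 and 3 (all genes 109, 1028 and 161). Without combination 1, combination 2 and combination 3 they were 3, 1 and 2 (all genes 89, 31 and 81). Without curcumin 3 there were 8 (all genes 467). Summing the combination libraries into 1 left 0 calls. That fit leaves 1 library in the combination group, so it has no spread within that group to draw on. Pdk1 was called without each of the 12 libraries in turn and Gbe1 without any but combination 2. The other calls were kept in fewer of these 12 fits. Vhl was called in 2, Ndrg1 and Fam162a in 3, Car9 in 4, and Egln1, Kdm4b and Gys1 in 5. Epas1, Bnip3l, Kdm3a and Errfi1 were called in 7, Ero1a in 8 and Ddit4 in 9.

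**Figure D2:**
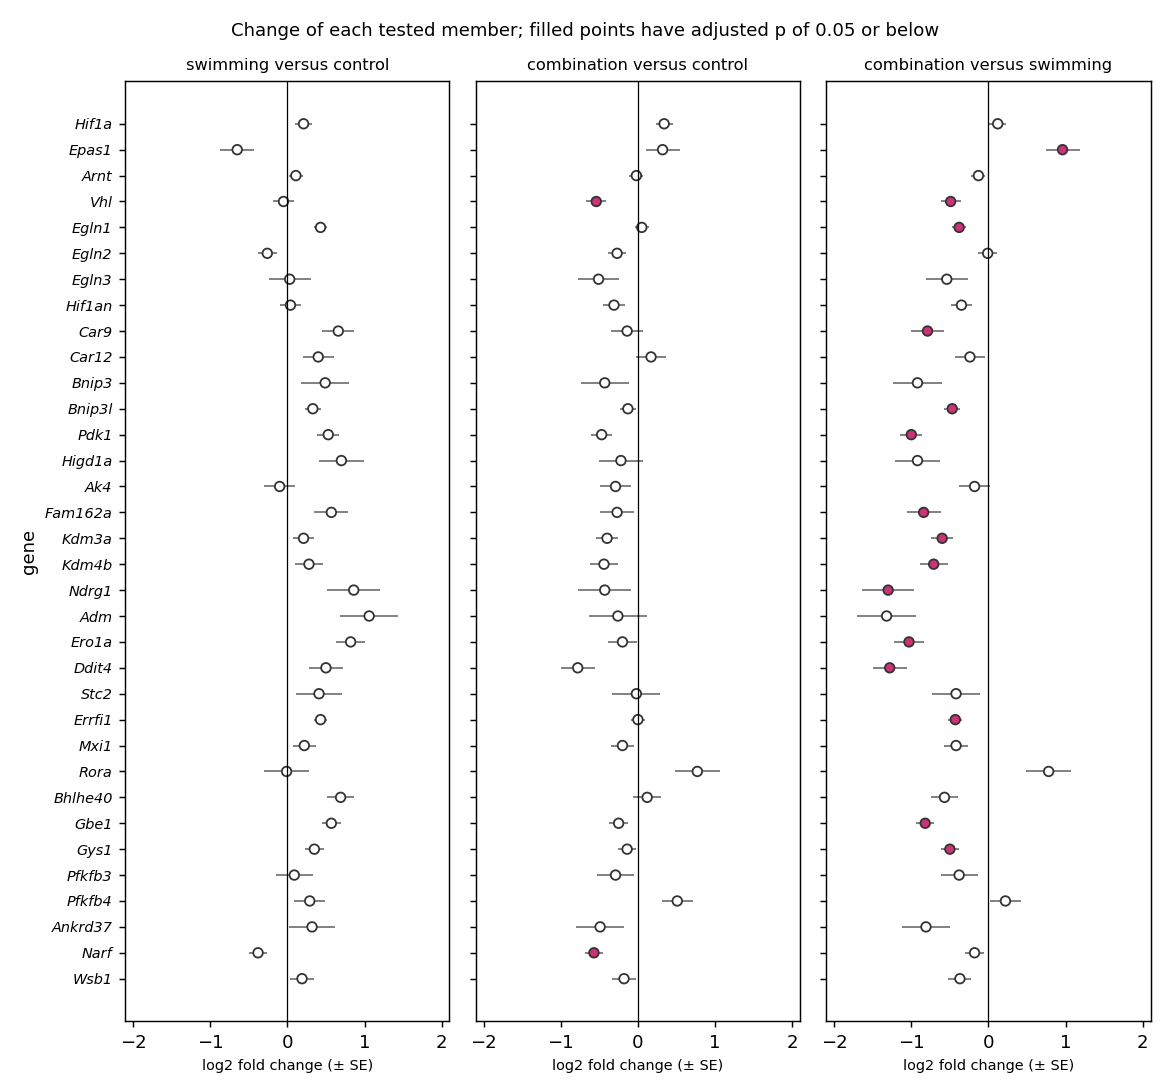
Log2 fold change (horizontal axis) with standard error for each of the 34 tested members in 3 comparisons; filled points have an adjusted p of 0.05 or below. No point is filled for swimming versus control, 2 are for combination versus control (Vhl and Narf) and 15 are for combination versus swimming.

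Of the 3 factor subunits, Epas1 was called. With swimming Epas1 stood at 18.8, 22.3 and 15.8 CPM and in the combination at 37.8, 35.8 and 37.4, beside 38.3, 25.1 and 25.6 in control and 23.4, 43.1 and 32.3 under curcumin. The swimming libraries were lowest and did not overlap any other group. It rose by 0.96 ± 0.22 on the log2 scale (adjusted p = 0.028) between swimming and combination. Epas1 is abundant in endothelium, and the endothelial list moved with it: 7 of 10 markers were called higher in the same comparison, among them Plvap (1.27 ± 0.15, adjusted p = 0.0033), Emcn (1.62 ± 0.22, adjusted p = 0.006) and Pecam1 (1.03 ± 0.14, adjusted p = 0.006), the summed list level was 146 to 250.4 CPM with swimming and 443 to 505 in the combination, and no marker was at 0. The part of endothelial RNA in the Epas1 result was not tested.

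Hif1a and Arnt, the other two subunits, were not called in any comparison. Levels of Hif1a were 192, 143 and 154 CPM in control, 183, 189 and 209.8 under curcumin, 188, 180.4 and 199 with swimming and 184, 218 and 215 with both. Control 2 and control 3 were the lowest libraries, and control 1 lay within the range of the other groups. For Arnt the 3 controls gave 125, 123 and 106 CPM, curcumin 99.6, 117 and 107, swimming 124, 131 and 128 and the combination 110.2, 119 and 121. The swimming libraries of Arnt were above all curcumin and combination libraries, within a narrow overall range.

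Of 5 genes of oxygen sensing and alpha subunit turnover, 2 were called lower in the combination. Egln1 measured 159, 159 and 134 CPM in controls 1 to 3, 149.5, 172 and 169 under curcumin, 209.8, 206 and 191 with swimming and 159, 160.1 and 148 in the combination. The 3 swimming libraries were above all others, and the gene, an oxygen sensor that is itself a target of the factors, fell by 0.38 ± 0.09 on the log2 scale (adjusted p = 0.03). With swimming Vhl stood at 17.9, 19.4 and 21.3 CPM and in the combination at 14.6, 12 and 15.1, beside 18.0, 21.5 and 21.1 in control and 18.6, 18.0 and 16.2 under curcumin. All combination libraries were below all others, at -0.49 ± 0.13 on the log2 scale (adjusted p = 0.044) against swimming and -0.54 ± 0.13 on the log2 scale (adjusted p = 0.039) against control. Levels of Egln3 were 214, 222 and 102 CPM in control, 119, 211 and 159 under curcumin, 184, 204 and 159 with swimming and 128, 118 and 131 with both. The combination was below swimming without overlap, but control 3 and curcumin 1 were as low, and Egln3 was not called (adjusted p = 0.22). For Egln2 the 3 controls gave 40.3, 45.0 and 32.7 CPM, curcumin 33.0, 31.2 and 36.0, swimming 34.3, 29.2 and 35.2 and the combination 33.7, 32 and 32.2. Its groups overlapped apart from the first 2 controls, which were highest. Hif1an ran from 44.9 to 73.1 CPM over the 12 libraries, both ends being controls, and was not called.

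**Figure D3:**
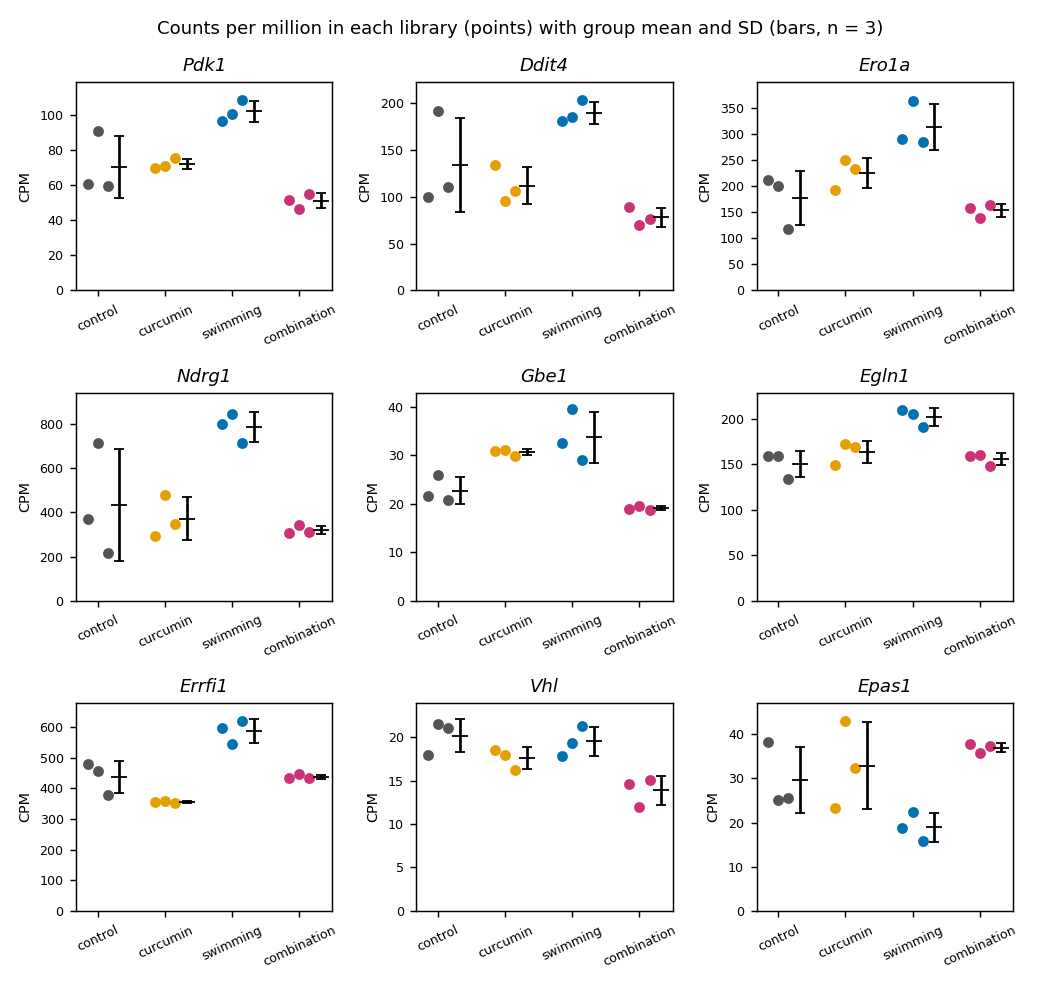
CPM of 9 members in each library (points, axis from 0) with the mean and SD of each group (bars, n = 3). For Pdk1, Ddit4, Ero1a, Ndrg1, Gbe1, Egln1 and Errfi1 all swimming points lie above all combination points, as they do for Vhl, and for Epas1 they lie below.

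Of 6 mitochondrial members, 3 fell between swimming and combination. Pdk1 (ENSMUSG00000006494, chromosome 2, 71703568 to 71734202 on the plus strand in the deposited table) showed the change with the smallest p. It encodes a mitochondrial kinase that inhibits pyruvate dehydrogenase. Pdk1 measured 61.0, 91.1 and 59.7 CPM in controls 1 to 3, 69.9, 71.2 and 75.7 under curcumin, 96.8, 101 and 109 with swimming and 51.7, 46.6 and 55.0 in the combination. The highest combination value, 55.0 CPM, was below every other library, and the lowest swimming value, 96.8, was above every other, so the 2 groups lay at opposite ends. Its change was -1.0 ± 0.14 on the log2 scale (adjusted p = 0.006), a 2.0-fold lower level. With swimming Fam162a stood at 64.5, 68.6 and 56.5 CPM and in the combination at 32.9, 38.7 and 34.2, beside 38.4, 61.7 and 27.5 in control and 45.9, 43.9 and 45.4 under curcumin. Fam162a, a mitochondrial protein that promotes cell death in hypoxia, fell by 0.84 ± 0.22 on the log2 scale (adjusted p = 0.044). Levels of Bnip3l were 189, 196 and 149 CPM in control, 177, 179 and 185 under curcumin, 215, 243 and 215 with swimming and 156, 157 and 174 with both. This mitophagy receptor fell by 0.47 ± 0.10 on the log2 scale (adjusted p = 0.023). Its relative Bnip3 had swimming values of 75.1, 68.3 and 47.4 CPM and combination values of 33.7, 36.6 and 30.5, which did not overlap, yet missed the threshold (adjusted p = 0.093). Higd1a, an assembly factor of the respiratory chain, missed it too (17.5 to 19.6 against 9.48 to 10.3 CPM, adjusted p = 0.072). Ak4, a mitochondrial adenylate kinase, overlapped between the groups (adjusted p = 0.57).

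Both histone demethylases of the list, which need oxygen to act and are induced when it is short, were called. For Kdm3a the 3 controls gave 145, 193 and 119 CPM, curcumin 115, 123 and 111, swimming 169, 169.9 and 189 and the combination 115, 112 and 120.4. Kdm4b measured 57.4, 90.1 and 51.7 CPM in controls 1 to 3, 48.3, 63.8 and 48.1 under curcumin, 79.2, 85.0 and 77.1 with swimming and 48.7, 47.5 and 50.7 in the combination. For each, the 3 swimming libraries exceeded all curcumin and combination libraries, and control 2 was the highest library of all. Kdm3a fell by 0.60 ± 0.14 on the log2 scale (adjusted p = 0.025) and Kdm4b by 0.71 ± 0.18 on the log2 scale (adjusted p = 0.037).

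Of 6 stress-control and secreted members, 4 fell, with a median change over the 6 of -1.16. With swimming Ndrg1 stood at 804, 848 and 714 CPM and in the combination at 307, 343 and 313, beside 369.7, 716 and 216 in control and 292, 479 and 347 under curcumin. This widely used marker of hypoxic tumour cells fell by 1.30 ± 0.34 on the log2 scale (adjusted p = 0.048), 2.45-fold, with control 2 at the level of swimming. Levels of Ddit4 were 100.1, 192 and 110.1 CPM in control, 134, 95.8 and 106 under curcumin, 181, 185 and 203 with swimming and 89.1, 69.3 and 76.0 with both. Ddit4, an inhibitor of mTORC1 signalling, fell 2.43-fold (-1.28 ± 0.22, adjusted p = 0.014), and its combination libraries were below all others. For Ero1a the 3 controls gave 212, 201 and 117 CPM, curcumin 193, 249.9 and 232, swimming 291, 364 and 284 and the combination 157, 139.6 and 163. The disulfide oxidase of the endoplasmic reticulum fell 2.04-fold (-1.03 ± 0.20, adjusted p = 0.017), with swimming above every other library. Errfi1 measured 478, 455 and 379 CPM in controls 1 to 3, 354, 359 and 351 under curcumin, 598, 544 and 620.0 with swimming and 433, 446 and 433 in the combination. Errfi1, a feedback inhibitor of the EGF receptor, fell by 0.43 ± 0.09 on the log2 scale (adjusted p = 0.022) to the level of control. Adm, which encodes the vasodilator adrenomedullin, had the largest estimate of any member in this comparison (-1.32 ± 0.38) with 46.5 to 69.6 CPM in swimming and 20.3 to 23.9 in the combination, and missed the threshold (adjusted p = 0.061). Stc2, a glycoprotein of calcium and stress responses, overlapped (adjusted p = 0.39).

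Of the 2 carbonic anhydrases, cell-surface enzymes of pH control, Car9 was called. With swimming Car9 stood at 129.6, 128 and 114 CPM and in the combination at 71.7, 75.6 and 66.5, beside 68.5, 110.2 and 56.3 in control and 66.8, 92.0 and 70.0 under curcumin. Swimming exceeded every other library, control 2 being the next, and the change was -0.79 ± 0.21 on the log2 scale (adjusted p = 0.044). Car12 ran from 41.1 to 91.4 CPM over all libraries with overlapping groups.

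Of 4 tested members that act on glycogen or on fructose 2,6-bisphosphate, the 2 glycogen enzymes fell. Gbe1 (ENSMUSG00000022707, chromosome 16, 70110837 to 70366604 on the plus strand in the deposited table), the glycogen branching enzyme, stood higher with either measure alone than with neither or both. Levels of Gbe1 were 21.6, 25.9 and 20.7 CPM in control, 30.9, 31.1 and 29.9 under curcumin, 32.6, 39.5 and 29.1 with swimming and 18.9, 19.6 and 18.8 with both. All combination libraries were below all others, including control, and the 3 curcumin and 3 swimming libraries were above every control (adjusted p = 0.31 and 0.081). Its change against swimming was -0.82 ± 0.12 on the log2 scale (adjusted p = 0.0081). For Gys1 the 3 controls gave 64.5, 95.1 and 72.7 CPM, curcumin 80.3, 84.5 and 79.1, swimming 106, 100.0 and 91.2 and the combination 67.5, 72.3 and 70.5. Gys1, glycogen synthase, fell by 0.50 ± 0.12 on the log2 scale (adjusted p = 0.032). Pfkfb3 and Pfkfb4, which set the level of the glycolytic activator fructose 2,6-bisphosphate, were not called (adjusted p = 0.32 and 0.49). Ppp1r3c had 0 to 19 counts in a library and 75 in all, and was not tested in the fit as reported. Its counts summed to 24 in control, 31 under curcumin, 8 with swimming and 12 with both.

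None of the 3 transcription factors was called in this comparison. Bhlhe40 measured 334, 313 and 177 CPM in controls 1 to 3, 292, 289 and 287 under curcumin, 468, 458 and 405 with swimming and 294, 324 and 276 in the combination. Swimming libraries of Bhlhe40, a repressor of the circadian clock and of hypoxic transcription, were above all others (adjusted p = 0.072 against the combination). With swimming Mxi1 stood at 83.8, 92.0 and 78.5 CPM and in the combination at 67.9, 59.1 and 63.5, beside 73.6, 90.5 and 54.2 in control and 49.3, 61.9 and 58.4 under curcumin. Mxi1, an antagonist of Myc, had a lower level in all combination libraries than in all swimming libraries (adjusted p = 0.11). Rora, a nuclear receptor, was one of 2 members in which the combination lay above swimming without overlap (11.2 to 15.3 against 7.33 to 7.96 CPM, adjusted p = 0.11). Of the remaining targets, Ankrd37 (1.33 to 2.46 against 2.82 to 4.10 CPM) and Wsb1 (165 to 179.6 against 208 to 240.0 CPM) did not overlap and were not called.

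Markers of other cell types also differed between combination and swimming. Of 8 tested neutrophil genes, 3 were called lower in the combination, and the summed level of the list was 126 to 138 CPM with swimming and 41.6 to 43.2 with both. Of 5 tested adipocyte genes 2 were called higher (9.37 to 10.8 and 28.2 to 31.0 CPM), with Adipoq, Cfd, Cidec, Lep, Pck1 and Plin1 at 0 in some library. Of 4 tested erythroid genes 2 were called lower (13.6 to 38.1 and 8.48 to 9.93 CPM), with Hba-a2 and Hbb-bt at 0 in some library. Of 9 macrophage genes 1 was called lower (1054 to 1719 and 1262 to 1294 CPM). None of 8 fibroblast genes (1798 to 3335 and 5243 to 5661 CPM), 7 tested T and NK cell genes (60.7 to 230.2 and 142 to 149 CPM) or 9 tested muscle genes (21.7 to 179.6 and 67.3 to 73.8 CPM) was called, with Klrb1c of the T and NK list and Ckm, Myh4, Pvalb and Tnnc2 of the muscle list at 0 in some library. Transcripts of the mitochondrial genome summed to 44011 to 50341 CPM with swimming and 48635 to 62328 with both. The part of these lists in the member changes was not tested. Tumour epithelial genes had 0 of 9 tested called, with a median change of 0.04 and summed levels of 3358 to 3778 and 3477 to 3609.7 CPM.

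Swimming alone was compared with control to ask what exercise did without curcumin. The members leaned upward, but edgeR called 0 of 34, against 0.308% of all genes. The median change was 0.33, and 28 of 34 changes were positive (48% of all genes). At unadjusted p under 0.05 there were 16 members (13% of all genes). DESeq2 called 6 members and limma voom, weighting each group, called 0. Over all genes they called 311 and 0, where edgeR called 42. The smallest adjusted p belonged to Egln1 (0.43 ± 0.09, adjusted p = 0.072), followed by Errfi1 and Gbe1, both at adjusted p = 0.081. Every swimming library lay above every control for 9 members (5.83% of all genes), Egln1, Car9, Bnip3l, Adm, Ero1a, Pdk1, Errfi1, Gbe1 and Bhlhe40. It lay below for 2, Epas1 and Narf (7.24% of all genes).

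Among single libraries, only control 2 changed the count when left out. Control 2 was below the lowest swimming library for 14 of 34 members, whereas control 1 was below that library for 20 and control 3 for 28. Without control 2, 16 members were called, all higher with swimming, while calls over all genes rose from 42 to 603. Pdk1 then changed by 0.76 ± 0.09 (adjusted p = 6.7e-04), Higd1a by 1.28 ± 0.16 (adjusted p = 6.9e-04), Car9 by 0.99 ± 0.14 (adjusted p = 0.0015) and Ndrg1 by 1.43 ± 0.25 (adjusted p = 0.015). The groups share a common estimate of spread in the fit, and leaving out control 2 also moved comparisons without controls. Swimming versus curcumin went from 2 to 15 members called and from 243 to 1537 genes over all. How far the count rose through the levels of control 2 or through the shared spread was not tested. The lower muscle and fibroblast sums and the higher neutrophil sum of control 2 stand beside the change in count, and their part was not tested.

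Both measures together against control left 2 members called, Vhl (above) and Narf, both lower, 2 of 34 against 4.86% of all genes. Levels of Narf were 67.9, 83.4 and 62.9 CPM in control, 52.4, 55.6 and 57.7 under curcumin, 54.1, 53.4 and 56.6 with swimming and 47.0, 41.7 and 55.8 with both. Narf, which binds prelamin A, was lower in every combination library than in any control (-0.57 ± 0.12, adjusted p = 0.03). The median member change was -0.23, with 8 of 34 positive (47.2% of all genes) and 10 at unadjusted p under 0.05 (26.6% of all genes). Without control 2 the median was 0.01 and 0 members were called. There were 7 calls without control 1, and 0 without curcumin 3, combination 1, combination 2 or combination 3. Over all genes, 663 were called as reported, 2182 without control 1, 316 without control 2 and 179 without curcumin 3. Without combination 1, combination 2 and combination 3 they were 20, 10 and 4. The Vhl call was also lost without control 3, curcumin 1 or swimming 1. In the same comparison 4 of 10 tested mitochondrially encoded genes, 3 of 5 tested adipocyte genes and 1 of 10 endothelial genes were called higher and 2 of 8 tested neutrophil genes lower, and their part was not tested. Summed levels in control and combination were 30216 to 41446 and 48635 to 62328 CPM for the mitochondrial genome, 7.63 to 17.7 and 28.2 to 31.0 for adipocyte, 292 to 414 and 443 to 505 for endothelial, and 68.2 to 267 and 41.6 to 43.2 for neutrophil genes. Against curcumin alone, Gbe1 was the 1 member called (0.851% of all genes, 0.491% lower and 0.359% higher), at -0.68 ± 0.12, adjusted p = 0.027. The combination lay lower without overlap for 11 members (18.5% of all genes), and the median change was -0.18. The Gbe1 call was lost without curcumin 1, curcumin 2, curcumin 3 or any of the combination libraries, and 3 members were called without control 2. Over all genes, 116 were called as reported and 715 without control 2. They were 81, 3 and 8 without curcumin 1, 2 and 3, and 5, 3 and 3 without combination 1, 2 and 3.

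Curcumin alone against control called 0 members and 0% of all genes with edgeR, and 0 members with DESeq2 (76 genes over all) or limma voom (0 genes). At unadjusted p under 0.05 there were 7 members (10.9% of all genes), with Pfkfb4 the smallest (0.72 ± 0.20, adjusted p = 0.3). The median change was -0.04, and 16 of 34 were positive (50.3% of all genes). The sign of the median turned on single libraries, being 0.16 without control 2 (24 of 35 positive), 0.05 without curcumin 1 and -0.17 without control 3 (11 of 35 positive). Curcumin lay above control without overlap for 3 members (7.41% of all genes), Gbe1, Stc2 and Pfkfb4, and below for 2 (7.22%), Narf and Errfi1. Swimming against curcumin called 2 members, both higher with swimming (1.78% of all genes called, 0.88% higher): Errfi1 (0.73 ± 0.09, adjusted p = 0.0064) and Kdm3a (0.60 ± 0.14, adjusted p = 0.047). The change was positive in 26 of 34 (47.2% of all genes), and swimming lay higher without overlap for 20 members (15.5% of all genes). The count was 15 without control 2, 5 without control 3 and 3 without control 1. It was 1 without swimming 1, swimming 2, swimming 3, curcumin 2, curcumin 3, combination 1, combination 2 or combination 3. Over all genes, 243 were called as reported, 1537 without control 2, 256 without control 3 and 535 without control 1. They were 9, 269 and 102 without swimming 1, 2 and 3, and 142, 14 and 11 without curcumin 1, 2 and 3. Without combination 1, 2 and 3 they were 67, 67 and 65. DESeq2 called 10 members and 1015 genes over all.

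The interaction asks whether swimming changed a gene differently with curcumin than without it. Only Gbe1 was called (1 of 34, against 0.249% of all genes called and 0.088% called negative), at -1.25 ± 0.18, adjusted p = 0.022: its mean was 22.7 ± 2.75 CPM in control, 33.7 ± 5.28 with swimming, 30.6 ± 0.663 with curcumin and 19.1 ± 0.403 with both (SD, n = 3 each). Estimates for Pdk1 (-1.04 ± 0.20, adjusted p = 0.056) and Ero1a (-1.38 ± 0.27, adjusted p = 0.08) missed the threshold. The median was -0.49, with 4 of 34 positive (50.4% of all genes). Without control 2, 14 members were called, all negative, and 2 were called without control 3. Over all genes, 34 were called as reported, 455 without control 2 and 22 without control 3. No member was called without swimming 1, curcumin 2, curcumin 3, combination 1, combination 2 or combination 3. Calls over all genes were then 0, 6, 1, 1, 1 and 1.

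Other genes of the pathway, from lists written beside the members, moved unevenly. Of 16 glycolytic targets of the factors, 8 fell between swimming and combination and 0 rose, among them the hexokinase, aldolase, phosphofructokinase and phosphoglycerate kinase genes Hk2 (-0.85 ± 0.13, adjusted p = 0.008), Aldoc (-0.69 ± 0.11, adjusted p = 0.0087), Pfkl (-0.82 ± 0.17, adjusted p = 0.02) and Pgk1 (-0.64 ± 0.13, adjusted p = 0.02). The median change of that list was -0.55. Of 14 vascular and secreted targets, 1 rose, the growth factor carrier Igfbp3 (1.11 ± 0.27, adjusted p = 0.038), 0 fell, and the median was -0.05. Among 18 matrix and other targets, 2 fell, the collagen prolyl hydroxylase P4ha1 (-0.68 ± 0.18, adjusted p = 0.047) and the glucose transporter Slc2a3 (-1.06 ± 0.22, adjusted p = 0.021), with a median of -0.17. Of 13 tested cofactors and regulators 1 fell, the deubiquitinase Usp20 (-0.45 ± 0.11, adjusted p = 0.038). Against control, 1 gene of these 4 lists was called in the combination and it rose, the collagen crosslinker Loxl2 (1.23 ± 0.22, adjusted p = 0.019).

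Several members also answer to other signals, and 2 lists of such signals were measured beside them. Of 8 genes of the integrated stress response, 2 fell between swimming and combination, Trib3 (-1.71 ± 0.31, adjusted p = 0.015) and Atf4 (-0.69 ± 0.18, adjusted p = 0.04), and the summed level was 272 to 361 CPM with swimming and 241 to 247 in the combination. Among 7 glucocorticoid targets, 4 were called higher with swimming than with curcumin, including Per1 (2.18 ± 0.31, adjusted p = 0.014), Klf9 (1.51 ± 0.27, adjusted p = 0.032) and Tsc22d3 (0.90 ± 0.17, adjusted p = 0.033). Swimming against control had 1 of the 7 called higher (0.154% of all genes), with a median change of 0.48 and 6 of 7 positive. Between swimming and combination 1 of the 7 was called, Per1 (-1.43 ± 0.30, adjusted p = 0.024), and the median change was -0.32 with 2 of 7 positive. The summed level of the list was 795 to 1009 CPM with swimming, 469.5 to 536 under curcumin, 532 to 662 in control and 698 to 708 in the combination. Whether either signal has a part in the member changes was not tested.

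**Figure D4:**
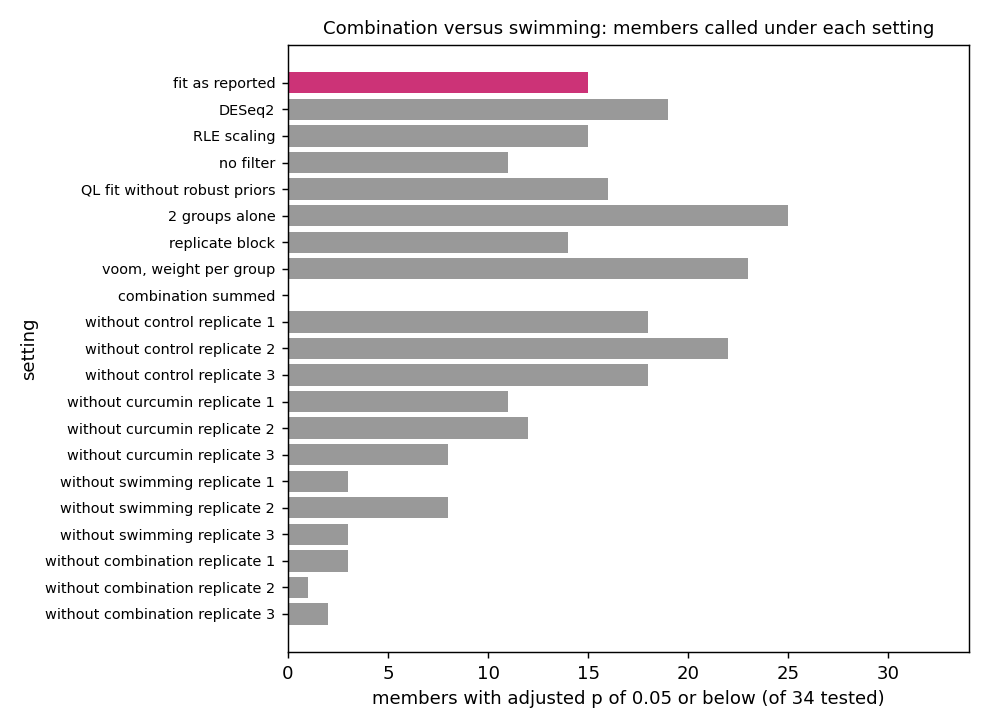
Number of members called between combination and swimming (bars, of 34 tested) in the fit as reported and under 20 other settings. The count is 15 as reported, 0 when the combination libraries are summed, 1 to 3 without any one combination library, and 25 when only the 2 groups are fitted.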

How the data were processed

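The authors' deposited table gave raw read counts per gene and FPKM (counts scaled by gene length and library total) for 12 libraries. Per the submitters' processing notes the tools were cutadapt, TopHat2, HISAT2, HTSeq 0.9.1 and DESeq 1.30.0. The notes name build GRCm39 and the labels' protocol names HISAT2 2.0.5 with an older mouse build, so gene positions are printed as the table gives them. The deposited FPKM equalled count over length and total for 184877 of 184877 values above 0, within 0.01%, and was used only to compare genes. Strand use in counting is not given in the sources used here.

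Counts were fitted over all 12 libraries in edgeR 4.0.16 (R 4.3.3) with TMM scaling and robust quasi-likelihood. Genes under a minimum count of 10 or a total of 15 were filtered, leaving 13638 of 21899. P-values of 7 contrasts were each adjusted by Benjamini-Hochberg over these genes. The comparisons share samples: each group enters 3 of the pairwise contrasts. The procedure was tested on simulated data. Alternatives used DESeq2 1.42.0, limma 3.58.1, other scaling, no filter, only the 2 groups compared, a replicate block, a summed combination group, and each library left out. A fit without robust priors was added after seeing the data.

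The members, and the lists of other genes, were chosen with earlier results of these data known. Every member is named. Values in all libraries are given for members called in any contrast, the factor subunits, the Egln genes, and the 2 of smallest p in a role with none of these. Of other pathway lists at most 4 called genes, and of other lists at most 3, are named. Groups follow the sample titles. Aldoa and Ddit3, each on 2 rows, were read from the row with more counts. Upstream windows came from RefSeq.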

Additional observations from a re-analysis of the deposited data

Results flagged for a closer look

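The effect of swimming on Gbe1, the glycogen branching enzyme, differed with and without curcumin by the test of the difference itself: the interaction was -1.25 ± 0.18 on the log2 scale (edgeR, adjusted p = 0.022). Swimming libraries held 1.48 times the control level, whereas combination libraries held 0.623 times the curcumin level. All 3 swimming libraries were above all 3 controls and all 3 combination libraries were below all 3 curcumin libraries. The call was lost without swimming 1, curcumin 2, curcumin 3, combination 1, combination 2 or combination 3.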

How the results depend on the processing

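No member called as reported changed sign in the same comparison under any alternative that gave it a value, but the median over members did: without control 2 for combination versus control (0.01) and, for curcumin versus control, between -0.17 and 0.16 on leaving out 1 library and at 0.02 with voom. With DESeq2 the members called were 6 for swimming versus control, 5 for combination versus control, 3 for combination versus curcumin, 10 for swimming versus curcumin and 4 for the interaction. Fitting only the 2 groups gave 0 for combination versus control, 8 versus curcumin, 25 versus swimming and 12 for swimming versus curcumin (it cannot give an interaction). Voom with a weight per group gave 1, 5, 23 and 11, and 3 for the interaction. Summing the combination libraries gave 0, 0, 0 and 1, and 0 for the interaction, and no filter gave 2 for the interaction. Same-numbered libraries did not deviate together (correlations -0.251 to 0.165), and a replicate block gave 0 for combination versus control, 1 for swimming versus curcumin and 14 for combination versus swimming. Leaving out 1 library moved members called over 0 to 16 (swimming versus control), 0 to 7 (combination versus control), 0 to 3 (versus curcumin), 1 to 22 (versus swimming), 1 to 15 (swimming versus curcumin) and 0 to 14 (interaction), and the median for combination versus control over -0.39 to 0.01. All-gene calls, in the order curcumin, swimming and combination versus control, combination versus curcumin and versus swimming, swimming versus curcumin, and interaction, were 0, 42, 663, 116, 908, 243 and 34. They were 76, 311, 1620, 688, 1841, 1015 and 211 with DESeq2, 1, 4, 220, 28, 496, 57 and 11 with the replicate block, 0, 0, 403, 1933, 2797, 907 and 36 with voom, and 0, 3, 0, 0, 0, 10 and 0 with the combination summed. With only 2 groups the first 6 were 0, 0, 132, 2121, 2707 and 659, and without robust priors the interaction had 19. Leaving out 1 library gave 0 to 8, 0 to 603, 4 to 2182, 3 to 715, 31 to 2697, 9 to 1537 and 0 to 455. Apart from the smaller numbers of samples in the sets left out, the cause was not tested.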
